A study of Mus musculus with 4 samples.

Results

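Collagens are the main structural proteins of the dermis. Each is a triple helix of 3 chains built from short repeats that each begin with glycine, and each chain is the product of a gene of its own. The chains are modified and folded in the endoplasmic reticulum, secreted, trimmed by proteases and cross-linked outside the cell. Fibrillar collagens form the rope-like fibrils that carry tension, FACIT collagens sit on the surface of those fibrils, type IV forms the sheet of basement membranes, and other types form beaded filaments, anchoring fibrils or transmembrane proteins.

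The collagen chain genes were taken as all genes with a probe set whose only gene symbol has the form Col, a number, a and a number. This gave 42 genes with 82 probe sets, of 18193 genes and 34945 probe sets with a single symbol on the array. A probe set reads 1 stretch of a transcript, usually close to the 3′ end, with several short probes, and it was counted as detected where at least 1 array called it present. By this measure 34 of the 42 genes and 55 of the 82 probe sets were detected, against 13585 genes and 24581 probe sets of the whole array. *Col6a6* and *Col28a1*, the other known collagen genes looked for, had no such probe set.

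Dermal cells came from female C57BL/6 mice given as 10 weeks old, and all mice received intradermal injections, 2 a day for 4 days. The 4 conditions had 1 array each: ventral (abdominal) skin of virgin mice given the vehicle DMSO, ventral skin of 15 dpc (days post-coitus) mice given DMSO, ventral skin of 15 dpc mice given PP2, a small-molecule inhibitor of Src family kinases, and dorsal skin of 15 dpc mice given DMSO. They are called the virgin, abdominal, PP2 and dorsal arrays. The titles give 15 dpc and the descriptions the following day. Subcutaneous fat was cut away, the skin was treated with dispase and scraped, and cells were released with collagenases and hyaluronidase, so other cells of the dermis and remnants of the epidermis were not sorted out. Whether each RNA came from 1 mouse or a pool is not stated in the sources used.

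With 1 array per condition there is no replicate, so no error, p-value or test could be given, and the values compare these 4 RNA samples only. The abdominal array was set against each of the other 3, and the 3 comparisons therefore share that array. A gene is called higher or lower below where the signal of its brightest probe set differed more than 2-fold and the brighter array called it present. In bulk RNA of this kind, fewer cells of a type and less RNA per cell cannot be told apart.

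The arrays were alike in detection, with 58.4% to 59.7% of 45101 probe sets called present. All 8 fibroblast markers looked for (*Pdgfra*, *Dpt*, *Lum*, *Dcn*, *Thy1*, *Pdpn*, *Fbln1* and *Mfap5*) were detected, and so were all 10 keratinocyte markers, so the preparations were not free of epidermal RNA. The ratio of 3′ to 5′ signal of the *Gapdh* control, which grows as RNA is shortened, was 2.51 (virgin), 1.41 (abdominal), 5.84 (PP2) and 2.97 (dorsal). That of the actin control was 2.64, 2.03, 2.70 and 4.14 in the same order, so the abdominal array was lowest by both controls, and the highest was PP2 by *Gapdh* and dorsal by actin. The part of these differences in the collagen values was not tested.

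Detection of the collagen genes was near that of the whole array. It was 34 of 42 genes beside 13585 of 18193, and 55 of 82 probe sets beside 24581 of 34945. Of the 11 fibrillar genes 9 were detected, of the 6 basement membrane genes 5, of the 9 FACIT genes 7, of the 5 beaded filament genes 4, of the 3 short-chain network genes 2, and all of the 4 transmembrane and 2 multiplexin genes and the single anchoring fibril gene. On all 4 arrays 30 genes were called present, and the same count for all genes is not given here. *Col6a5* and *Col9a3* were present on 3 arrays, *Col20a1* on 2, and *Col25a1* on 3 through its dimmer probe set alone. *Col2a1*, *Col9a2*, *Col10a1* and *Col11a2*, which are known from cartilage, had no present call on any array, nor did *Col4a3*, *Col6a4*, *Col22a1* and *Col26a1*.

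Promoters of 5 genes are shown, those of 3 fibrillar chains that had at least 1 probe set more than 2-fold lower in dorsal than in abdominal skin (*Col1a2*, *Col3a1*, *Col5a1*) and of 2 genes that were higher on both the PP2 and the dorsal array (*Col11a1*, *Col13a1*). *Col1a1* and *Col12a1* met the same criteria and are not shown. Each sequence is the 250 bases before the RefSeq transcript start in GRCm38.p6, read along the gene's strand. Capitals mark the CCAAT box by its letters, the TATA box searched as TATAAA, or the GC box searched as GGGCGG, on either strand. *Col1a2* lies at chr6:4505368-4505617 (plus strand), *Col3a1* at chr1:45311288-45311537 (plus), *Col5a1* at chr2:27886175-27886424 (plus), *Col11a1* at chr3:114030290-114030539 (plus) and *Col13a1* at chr10:61979109-61979358 (minus).
Col1a2: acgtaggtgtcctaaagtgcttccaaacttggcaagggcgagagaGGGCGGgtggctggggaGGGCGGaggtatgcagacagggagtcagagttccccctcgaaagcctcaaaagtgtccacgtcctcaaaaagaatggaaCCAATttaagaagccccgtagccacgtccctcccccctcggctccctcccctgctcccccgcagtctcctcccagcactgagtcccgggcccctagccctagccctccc
Col3a1: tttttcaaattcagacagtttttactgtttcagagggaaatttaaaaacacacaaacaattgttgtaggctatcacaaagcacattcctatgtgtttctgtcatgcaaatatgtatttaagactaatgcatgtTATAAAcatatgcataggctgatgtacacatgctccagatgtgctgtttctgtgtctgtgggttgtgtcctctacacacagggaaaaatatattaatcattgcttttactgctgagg
Col5a1: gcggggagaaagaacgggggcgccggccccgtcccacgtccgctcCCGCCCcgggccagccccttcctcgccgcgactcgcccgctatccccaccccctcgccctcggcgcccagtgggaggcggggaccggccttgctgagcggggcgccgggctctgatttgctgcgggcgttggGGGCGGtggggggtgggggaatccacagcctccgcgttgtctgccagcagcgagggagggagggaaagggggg
Col11a1: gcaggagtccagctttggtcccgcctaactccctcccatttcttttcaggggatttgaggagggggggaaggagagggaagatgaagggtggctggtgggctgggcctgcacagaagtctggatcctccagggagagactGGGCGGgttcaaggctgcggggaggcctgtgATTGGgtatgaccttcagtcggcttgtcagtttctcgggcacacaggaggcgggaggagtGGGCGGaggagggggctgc
Col13a1: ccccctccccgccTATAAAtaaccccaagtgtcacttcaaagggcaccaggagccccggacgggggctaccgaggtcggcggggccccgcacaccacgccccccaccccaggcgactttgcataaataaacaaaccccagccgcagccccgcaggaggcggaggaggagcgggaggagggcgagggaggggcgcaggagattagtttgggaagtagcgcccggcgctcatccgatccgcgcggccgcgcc

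A CCAAT match began 109 bases before the start in *Col1a2* and, on the other strand, 79 bases before it in *Col11a1*. TATAAA was found in *Col3a1*, 117 bases before the start, and in *Col13a1*, 237 bases before it, and GGGCGG was found 2 times each in *Col1a2*, *Col5a1* and *Col11a1*. The guanine and cytosine share ran from 35.2% in *Col3a1* to 76.4% in *Col5a1*. Neither the first 3 genes nor the other 2 shared a single arrangement of these letters. In 36 windows of 33 collagen genes, CCAAT was found in 13 (36.1%), TATAAA in 5 (13.9%) and GGGCGG in 21 (58.3%). Over the 32851 windows of all genes in the table the shares were 33.8%, 12.4% and 32.7%. A match is a string of letters and not a measured binding site.

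Few collagen genes differed more than 2-fold between the abdominal array and any other array, and the count was highest against dorsal skin. Over the virgin array 3 of 34 genes were higher (*Col1a1*, *Col4a6*, *Col9a3*) and 1 was lower (*Col23a1*). The same rule called 3.19% of all detected genes higher and 3.33% lower, against 8.82% and 2.94% of the collagen genes. Over the PP2 array 1 gene was higher (*Col9a3*) and 3 were lower (*Col11a1*, *Col12a1*, *Col13a1*), against 4.66% and 3.56% of all genes. Over the dorsal array 2 genes were higher (*Col1a1*, *Col5a1*) and 5 lower (*Col5a3*, *Col11a1*, *Col12a1*, *Col13a1*, *Col27a1*), against 4.95% and 4.67% of all genes. The 5 lower genes made up 14.7% of the collagen genes. The other shares rest on 1 to 3 genes each.

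Counted by probe set instead of by gene, more of the 55 collagen probe sets passed. Over the virgin array 6 were higher and 3 lower, where 3.3% and 3.87% of all detected probe sets were. Over the PP2 array 4 were higher and 4 lower, beside 7.59% and 3.26% of all probe sets. Over the dorsal array 8 were higher and 8 lower, beside 5.24% and 5.48%. Probe sets of 1 gene read the same transcripts and are not independent of each other.

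Each array was also set against the other 3 together. The number of genes more than 2-fold above, or below, all 3 other arrays by their brightest probe set was 0 on each array in either direction. Of all detected genes, 0.559% were above and 0.456% below for the virgin array, 0.817% and 0.685% for the abdominal one, 0.258% and 0.942% for PP2, and 1.13% and 1.44% for dorsal, shares so small that a count of 0 among 34 genes is near them and tells nothing particular of the collagens. Among dimmer probe sets, 1 of *Col23a1* was above all others on the virgin array and 1 of *Col5a1* on the abdominal array.

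The median log2 ratio of the 33 genes with a detected brightest probe set was 0.11 for abdominal over virgin, -0.36 for abdominal over PP2 and -0.22 for abdominal over dorsal. The medians of all detected genes were 0.02, 0.00 and 0.04. Ratios above 1 were found in 21 of the 33 genes against virgin, 14 against PP2 and 12 against dorsal.

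**Figure D1:**
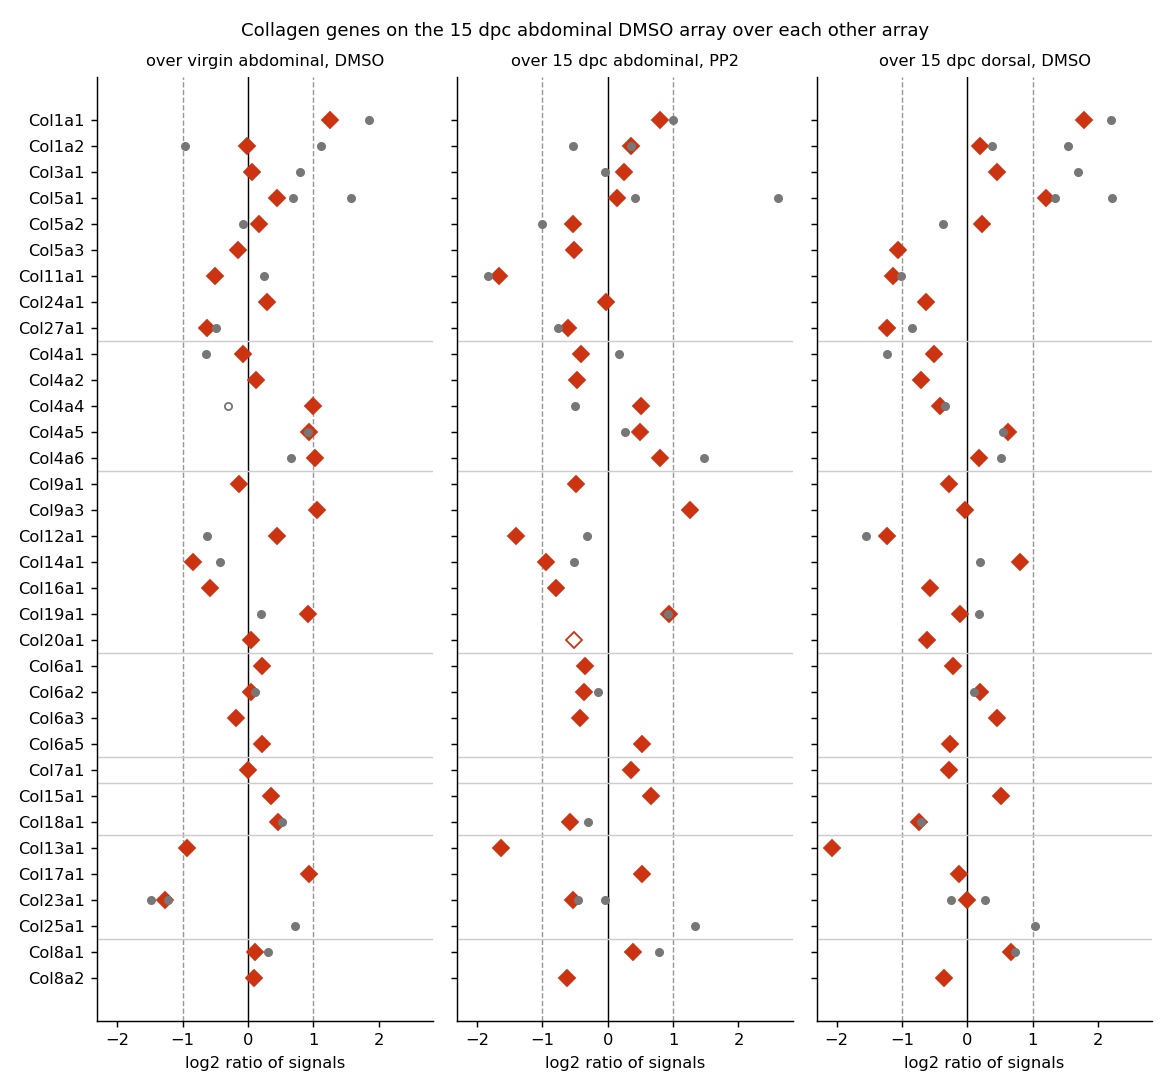
Log2 ratio of MAS5 signals of the abdominal array over the virgin, PP2 and dorsal arrays (x axis) for each detected collagen gene (y axis, grouped by class). Red diamonds stand for the brightest probe set and grey dots for the other detected ones, open symbols mark ratios with no present call on the brighter array, and dashed lines mark 2-fold. Most diamonds lie between the dashed lines, and *Col13a1* lies farthest to the left against dorsal at -2.07.

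Type I collagen, the main fibril protein of skin, tendon and bone, is made of the chains of *Col1a1* and *Col1a2*. The brighter *Col1a1* probe set read 4844 (virgin), 11530 (abdominal), 6630 (PP2) and 3344 (dorsal). The second read 1077, 3879, 1947 and 851 in the same order of arrays. Both were highest on the abdominal array and lowest on the dorsal array. The abdominal signal was 2.38-fold and 3.60-fold above virgin, 3.45-fold and 4.56-fold above dorsal, and 1.74-fold and 1.99-fold above PP2, the last pair below the 2-fold rule.

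For *Col1a2*, the partner chain, the brightest probe set read 25696 (virgin), 25489 (abdominal), 19808 (PP2) and 22238 (dorsal). It was among the brightest of the array, at rank 59 of 45101 on the abdominal array, and its ratios stayed within 1.29-fold. The second probe set read 8601, 18662, 14523 and 6417, with the same order of arrays as *Col1a1*, and was 2.17-fold above virgin and 2.91-fold above dorsal on the abdominal array. Another, dimmer one read 726, 374, 540 and 289 and was highest on the virgin array. The 3 probe sets thus gave log2 ratios over virgin from -0.96 to 1.12 and over PP2 from -0.53 to 0.36. A single direction for *Col1a2* cannot be given against virgin or PP2. All 3 were higher on the abdominal than on the dorsal array, with log2 ratios from 0.20 to 1.54.

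*Col3a1* encodes the chain of type III collagen, which forms thin fibrils together with type I. Its brightest probe set read 29055 (virgin), 30307 (abdominal), 25395 (PP2) and 22191 (dorsal), and took rank 15 there on the abdominal and rank 6 on the PP2 array. Its second probe set read 4324, 7535, 7764 and 2337. Both were lowest on the dorsal array, but the abdominal signal was 1.37-fold above dorsal by the first and 3.22-fold by the second. Over virgin the values were 1.04-fold and 1.74-fold. The highest signal of any probe set was 45550 (virgin), 41761 (abdominal), 26947 (PP2) and 51622 (dorsal). The PP2 array thus had the lowest top signal, not far above its *Col3a1* value. Whether the brightest probe sets of *Col1a2* and *Col3a1* were close to the upper limit of the scanner was not tested. Neither was the part of the lower PP2 top in their ratios over PP2.

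Type V collagen is incorporated into type I fibrils and helps to start them and to set their width. *Col5a1*, its principal chain, read 2305 (virgin), 3131 (abdominal), 2850 (PP2) and 1356 (dorsal) by its brightest probe set. The second read 957, 1549, 1162 and 612. The dorsal array was the lowest by both, with the abdominal signal 2.31-fold and 2.53-fold above it, and the difference from virgin was 1.36-fold and 1.62-fold. The third probe set was called present on the abdominal array alone, at 222, which was at least 2.97-fold above virgin, at least 4.65-fold above dorsal and at least 6.05-fold above PP2. The other probe sets of *Col5a1* gave 1.10-fold and 1.33-fold over PP2.

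The other type V chains did not follow *Col5a1*. *Col5a2* read 5596 (virgin), 6281 (abdominal), 9054 (PP2) and 5358 (dorsal), and its second probe set 1744, 1647, 3289 and 2142. Both were highest on the PP2 array, 1.44-fold above abdominal by the first and a little short of 2-fold by the second. *Col5a3*, a less widely made chain, read 955, 862, 1228 and 1805 and was highest on the dorsal array, 2.09-fold above abdominal.

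Of the remaining fibrillar genes, *Col11a1* and *Col27a1* were lower in abdominal than in dorsal skin. *Col11a1*, a chain of type XI collagen known from cartilage fibrils, read 219 (virgin), 154 (abdominal), 483 (PP2) and 339 (dorsal), and by its second probe set 137, 162, 576 and 327. By both, the PP2 and dorsal arrays were high and the virgin and abdominal arrays low. The PP2 signal was 3.15-fold and 3.55-fold above abdominal, and the dorsal signal 2.21-fold and 2.01-fold. *Col27a1*, also expressed in cartilage, read 1484, 965, 1470 and 2267. Dorsal was the highest, 2.35-fold above abdominal by this probe set and 1.80-fold by the second. *Col24a1*, known from bone, read 174, 213, 216 and 328 and differed by at most 1.54-fold from the abdominal array.

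**Figure D2:**
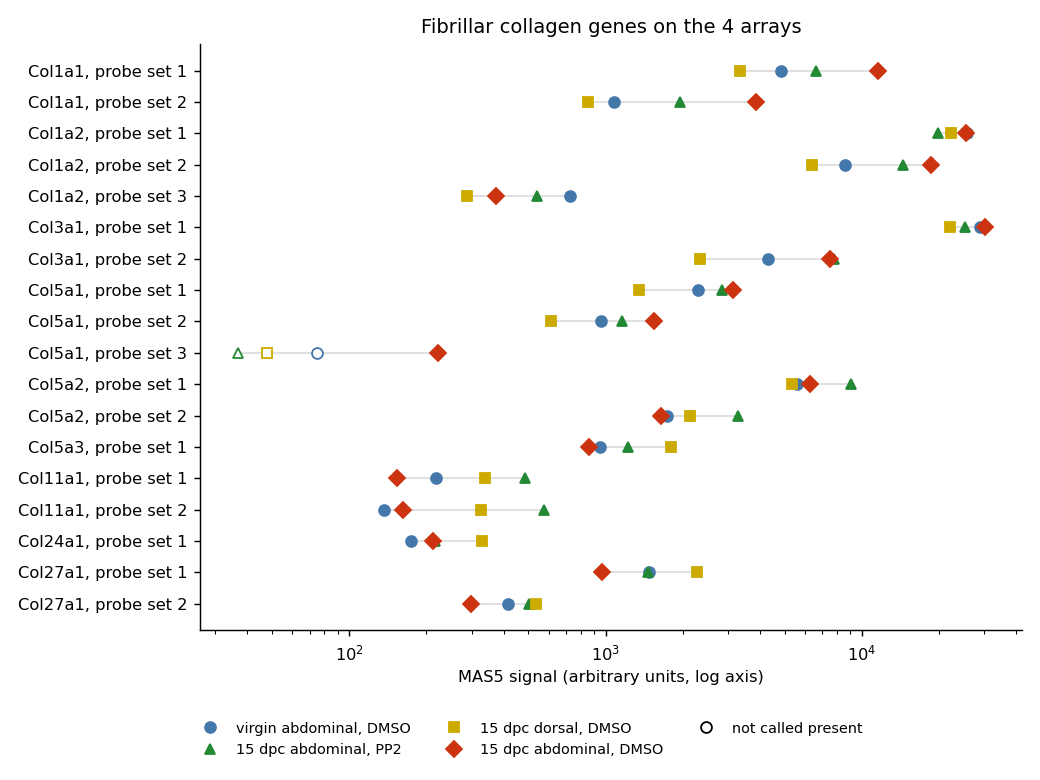
MAS5 signals (x axis, arbitrary units, log axis) of all 18 detected probe sets of the fibrillar collagen genes (y axis, numbered from the brightest) on the 4 arrays, 1 symbol for each array, with open symbols where no present call was made. The dorsal array has the lowest signal in all probe sets of *Col1a1* and *Col3a1* and the dimmer ones of *Col1a2*, and the PP2 array the highest in both of *Col11a1*.

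Of the type IV collagen genes, 1 of the 5 detected, *Col4a6*, passed the rule in a comparison. *Col4a1* and *Col4a2* encode the chains found in nearly all basement membranes and stand head to head in the genome, their 300-base promoter windows sharing 78 bases. *Col4a1* read 8602 (virgin), 8181 (abdominal), 10814 (PP2) and 11683 (dorsal), and *Col4a2* read 3297, 3573, 4951 and 5842. Both were highest on the dorsal array, 1.43-fold and 1.63-fold above abdominal, and neither passed the rule in any comparison. The second *Col4a1* probe set was 2.33-fold higher in dorsal than in abdominal skin.

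*Col4a5* and *Col4a6*, another head-to-head pair, encode chains of the basement membranes of epidermis and smooth muscle. *Col4a5* read 857 (virgin), 1643 (abdominal), 1168 (PP2) and 1066 (dorsal). *Col4a6* read 116, 237, 136 and 209. By these probe sets both were highest on the abdominal array and lowest on the virgin array, with 1.92-fold for *Col4a5*, below the rule, and 2.04-fold for *Col4a6*. The second probe sets gave 1.90-fold and 1.58-fold over virgin. The second *Col4a6* probe set read 123, 193, 69.5 and 136, with PP2 and not virgin the lowest, and was 2.78-fold above PP2, where the first gave 1.75-fold. *Col4a4*, a dim gene known from kidney, read 76.0, 152, 107 and 203, with virgin the lowest. Its second probe set read 98.6, 79.3, 113 and 100.02, called present on the PP2 and dorsal arrays, and had abdominal the lowest. The probe sets therefore differed in direction over PP2. Over virgin, the first was 1.99-fold above on the abdominal array. The second gave the other direction there, but had no present call on the virgin or the abdominal array.

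The 5 detected basement membrane genes had a median log2 ratio of 0.94 over virgin, 0.49 over PP2 and -0.42 over dorsal, and 4 of them were above virgin by their brightest probe sets, *Col4a4* among them. The 9 fibrillar genes had medians of 0.06, -0.02 and 0.20. Summed signals of the 10 keratinocyte markers were 84800 (virgin), 108503 (abdominal), 67279 (PP2) and 141159 (dorsal). Those of the 7 detected of 8 smooth muscle and pericyte markers were 47884, 52297, 36416 and 34896, with *Cnn1* undetected.

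The summed markers of hair and of fat were also highest on the abdominal array. The 8 hair shaft and matrix markers, all detected, summed to 759 (virgin), 10600 (abdominal), 2055 (PP2) and 939 (dorsal), and 7 of them were higher on the abdominal array over virgin, 6 over PP2 and 7 over dorsal. The 5 detected of 8 adipocyte markers summed to 37923, 51582, 30842 and 28591 in the same order, with *Cidec* and *Lep* undetected, *Plin1* without a probe set, and 2, 2 and 4 of them higher. The shares of all detected genes called higher were 3.19% over virgin, 4.66% over PP2 and 4.95% over dorsal. *Fabp4* alone read 41761 of the fat sum on the abdominal array, and *Lpl* was brightest on PP2, at 7944 against 6402 (abdominal). The part of epidermal, hair, muscle or fat RNA in *Col4a5*, *Col4a6*, *Col1a1* and the other genes that were high on the abdominal array was not tested.

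FACIT collagens bind the surface of fibrils. *Col12a1*, which is known from tendon and other dense connective tissue, read 970 (virgin), 1322 (abdominal), 3484 (PP2) and 3108 (dorsal). The PP2 and dorsal arrays were high, 2.64-fold and 2.35-fold above abdominal. The second, dimmer probe set read 125, 80.9, 101 and 237, and differed from the first in that only the dorsal array was more than 2-fold above abdominal (2.93-fold), while PP2 was 1.25-fold above it.

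*Col14a1*, a relative of *Col12a1* that also decorates type I fibrils, had another order. It read 1184 (virgin), 664 (abdominal), 1272 (PP2) and 378 (dorsal). Virgin and PP2 were high and dorsal was lowest, and the PP2 signal was 1.91-fold and the virgin signal 1.78-fold above abdominal, both below the rule. The second probe set had the same order with smaller ratios, 1.43-fold and 1.35-fold. *Col16a1*, found near basement membranes and fibrils, read 3125, 2091, 3634 and 3100 and was lowest on the abdominal array by at most 1.74-fold.

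Among the dim FACIT genes, *Col9a3*, a chain of the cartilage collagen type IX, read 33.1 (virgin, not called present), 68.7 (abdominal), 28.8 (PP2) and 70.4 (dorsal). The abdominal signal was at least 2.08-fold above virgin and 2.38-fold above PP2. The other probe sets of *Col9a3* were not detected. *Col9a1*, *Col19a1* and *Col20a1* ranged from 34.7 to 167 and did not pass the rule in any comparison. The 7 detected FACIT genes had median log2 ratios of 0.04 over virgin, -0.51 over PP2 and -0.28 over dorsal, and 6 of them were below 1 against dorsal.

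Type VI collagen forms beaded filaments around cells, and its 3 main chains did not pass the rule against the abdominal array. *Col6a1* read 3772 (virgin), 4392 (abdominal), 5584 (PP2) and 5103 (dorsal). *Col6a2*, its neighbour in the genome, read 5459, 5608, 7186 and 4919, and *Col6a3* read 6458, 5661, 7630 and 4151. All 3 were highest on the PP2 array, 1.27-fold to 1.35-fold above abdominal. Other pairs of arrays differed more, with *Col6a3* 1.84-fold higher on the PP2 than on the dorsal array and *Col6a1* 1.48-fold higher on PP2 than on virgin. *Col6a5* was dim, at 30.0 to 51.6.

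At the junction of dermis and epidermis, *Col7a1*, the protein of the anchoring fibrils, read 1256 (virgin), 1250 (abdominal), 978 (PP2) and 1521 (dorsal), and differed from the abdominal array by at most 1.28-fold. *Col17a1*, a transmembrane collagen of the hemidesmosomes of basal keratinocytes, read 4580, 8736, 6065 and 9580. Virgin was lowest, at 1.91-fold below abdominal, short of the rule. The order of the arrays differed from that of the keratinocyte marker sum given above in the place of the virgin and PP2 arrays. Of those markers, *Itgb4* had the order of *Col17a1*, at 574 (virgin), 906 (abdominal), 811 (PP2) and 1495 (dorsal). *Itga6* and *Trp63* were also lowest on the virgin array. *Krt5*, *Krt14*, *Krt1*, *Krt10*, *Dsp* and *Cdh1* were lowest on PP2, and *Lor* on the abdominal array. The part of epidermal RNA in *Col17a1* was not tested.

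The multiplexins *Col15a1* and *Col18a1*, basement membrane collagens whose ends can be released as small fragments, differed in their order of arrays. *Col15a1* read 542 (virgin), 689 (abdominal), 438 (PP2) and 481 (dorsal) and was highest on the abdominal array. *Col18a1* read 1281, 1754, 2618 and 2940 and was highest on the dorsal array, 1.68-fold above abdominal and 2.29-fold above virgin. Neither passed the rule against the abdominal array. The short-chain network genes *Col8a1* (404 to 639) and *Col8a2* (456 to 747), known from vessels and the cornea, did not pass it either.

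Of the transmembrane collagens, *Col13a1*, which is known from cell adhesion sites and the neuromuscular junction, had the largest ratio of all detected collagen genes by their brightest probe sets. It read 960 (virgin), 506 (abdominal), 1563 (PP2) and 2124 (dorsal). The abdominal array was the lowest, with dorsal 4.20-fold, PP2 3.09-fold and virgin 1.90-fold above it. It has a single probe set, so no other probe set could be set beside these values.

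*Col23a1*, another transmembrane collagen, was highest on the virgin array. Its 3 probe sets read 1522, 1932 and 1317 there, then 630, 692 and 564 (abdominal), 911, 712 and 773 (PP2) and 632, 575 and 668 (dorsal). The virgin signal was 2.41-fold, 2.79-fold and 2.34-fold above abdominal, so that the 3 probe sets gave 1 direction with ratios close to each other. Against PP2 and dorsal the abdominal signal differed by at most 1.45-fold. *Col25a1*, a collagen of neurons, was detected at 18.4 to 46.5 by its dimmer probe set only, and was 2.53-fold higher on the abdominal than on the PP2 array and at least 2.04-fold higher than on the dorsal array.

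**Figure D3:**
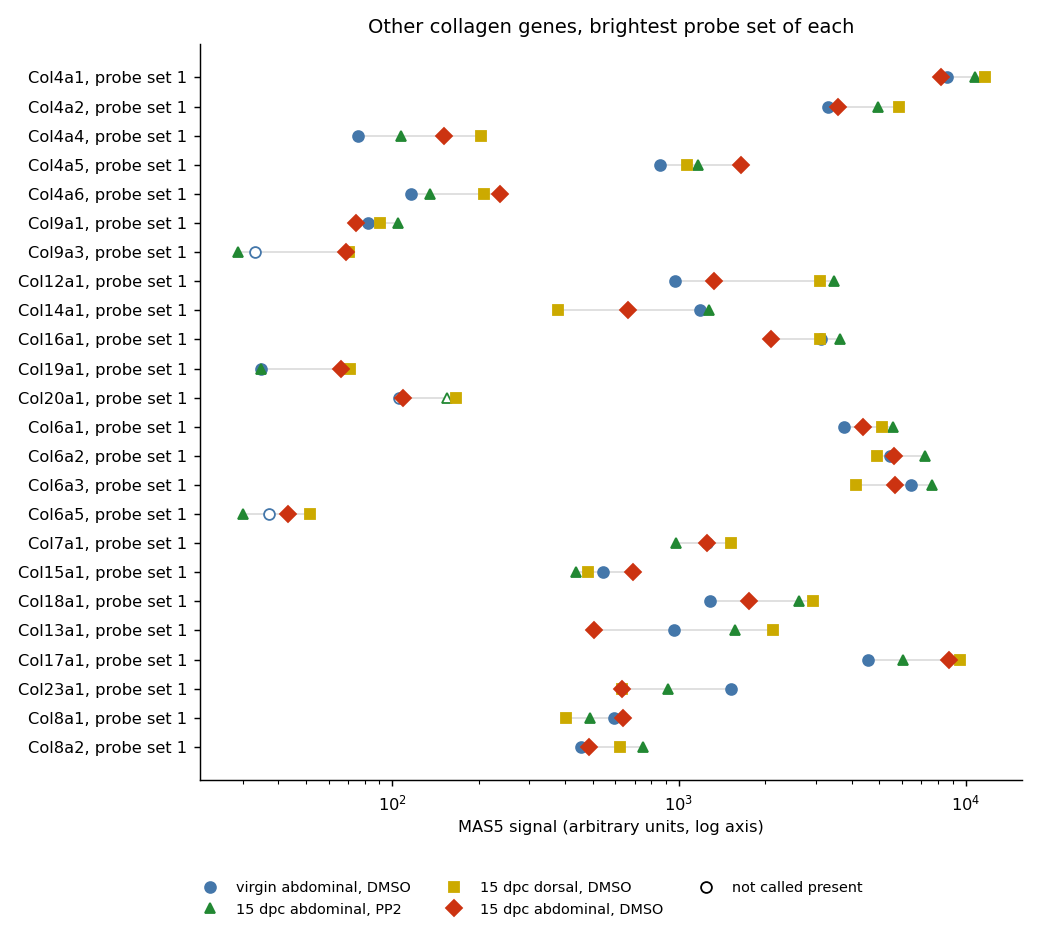
MAS5 signals (x axis, arbitrary units, log axis) of the brightest probe set of each detected collagen gene outside the fibrillar class (y axis) on the 4 arrays, 1 symbol for each array, with open symbols where no present call was made. *Col25a1* is not shown because its brightest probe set was not detected. *Col12a1*, *Col18a1* and *Col13a1* have the dorsal and PP2 symbols to the right of the virgin and abdominal ones. So do *Col4a1*, *Col4a2*, *Col6a1*, *Col8a2*, *Col9a1* and *Col20a1*. *Col23a1* has the virgin symbol to the right of all others.

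The 3 genes that were lower on the abdominal array than on both the PP2 and the dorsal array, *Col11a1*, *Col12a1* and *Col13a1*, are set beside the markers of tendon and fascia. The summed signals of the 8 markers, all detected, were 3318 (virgin), 3629 (abdominal), 18809 (PP2) and 23725 (dorsal). The PP2 and dorsal arrays were thus high in this sum as in the 3 collagen genes, but not in each marker. The whole list was chosen with earlier results of these data known, so this likeness is a description only. *Thbs4* and *Comp* were brightest on the abdominal array. *Scx* and *Chodl* on the PP2 and dorsal arrays differed from the abdominal array by at most 1.34-fold. Of the 8 markers 4 were lower on the abdominal array than on PP2 and 1 higher, and 4 were lower than on dorsal and 2 higher. The shares of all detected genes were 3.56% lower and 4.66% higher over PP2, and 4.67% lower and 4.95% higher over dorsal. *Fmod*, also named after its values were seen, at 1734 (abdominal) and 18858 (dorsal), made up most of the sum on the dorsal array. The 4 detected of 6 cartilage markers summed to 936, 1096, 1385 and 1509 on the virgin, abdominal, PP2 and dorsal arrays, with *Acan* and *Matn3* undetected. *Sox9* made up most of each sum, and the others differed in direction. *Hapln1* had no present call on the abdominal array and read 223 (virgin), 346 (PP2) and 337 (dorsal). *Matn1* read 186 (abdominal) and 42.2 (PP2) and had no present call on virgin or dorsal. *Cnmd* was called present on the abdominal array alone, at 48.2. The 6 detected Schwann cell markers summed to 52807 (virgin), 54375 (abdominal), 49878 (PP2) and 62645 (dorsal). Of these 6, named after their values were seen, *Cdh19* and *S100b* were lower on the abdominal array than on PP2, and *Cdh19*, *S100b* and *Sox10* were lower than on dorsal. *Cdh19* read 822 (virgin), 1277 (abdominal), 4558 (PP2) and 5231 (dorsal), the same high and low arrays as the 3 collagen genes. The list was not alike in this. *Mbp* (1.45-fold) and *Pmp22* (1.16-fold) were brighter on the abdominal array than on PP2, and *Erbb3* was 1.13-fold brighter on PP2. Against dorsal, *Mbp* and *Pmp22* were 1.06-fold and 1.08-fold brighter on the abdominal array. The part of tendon, fascia, cartilage or Schwann cell RNA in the 3 collagen genes was not tested.

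The 2 genes called higher in abdominal than in dorsal skin, *Col1a1* and *Col5a1*, are set beside the fibroblast markers. The 8 markers summed to 64436 (virgin), 46758 (abdominal), 54759 (PP2) and 36213 (dorsal). Of these markers 4 were higher on the abdominal than on the dorsal array, beside 4.95% of all detected genes. None was higher on the abdominal than on the virgin array, beside 3.19% of all detected genes, while *Col1a1* was 2.38-fold higher there. By ratio all 8 markers were below virgin, with a median log2 ratio of -0.54, and 6 were above dorsal. The part of fibroblast RNA in these collagen values was not tested.

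**Figure D4:**
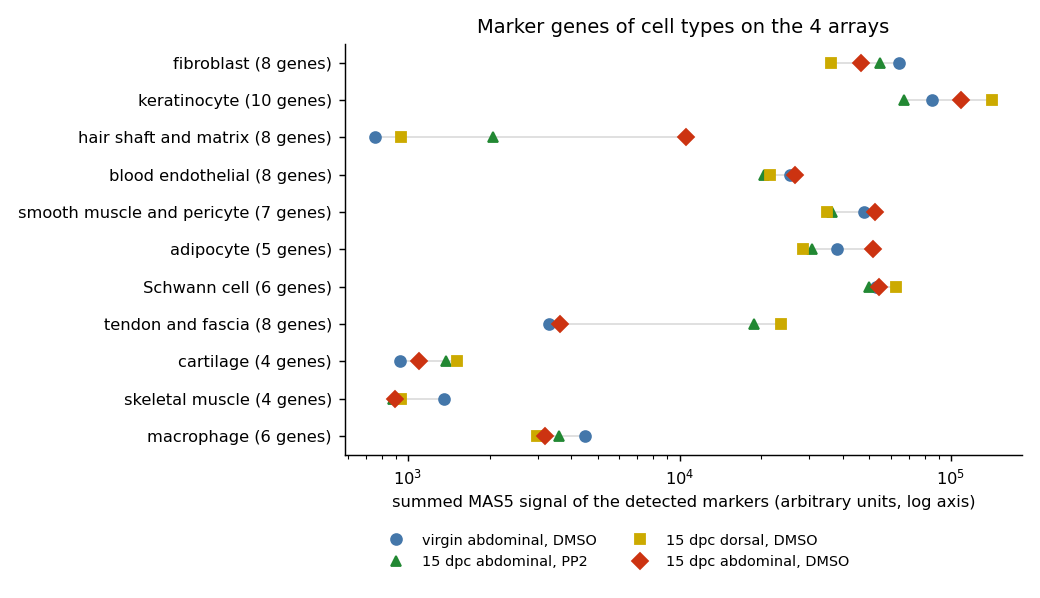
Summed MAS5 signals (x axis, arbitrary units, log axis) of the detected marker genes of 11 cell types (y axis, with the number of genes summed) on the 4 arrays, 1 symbol for each array. The tendon and fascia markers sum to 18809 (PP2) and 23725 (dorsal), to the right of 3318 (virgin) and 3629 (abdominal).

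Genes that fold, trim, cross-link, bind and cut collagens were counted by the same rule, which called 3.19% of all detected genes higher and 3.33% lower over virgin, 4.66% and 3.56% over PP2 and 4.95% and 4.67% over dorsal. Each list is short, so that its counts can be set beside these shares only as a description. Of 21 detected genes of collagen folding and modification, 0 were higher and 2 lower over virgin, 1 was higher and 3 lower over PP2, and 0 passed the rule over dorsal. The share lower over PP2 rests on 3 genes. *Serpinh1*, the collagen chaperone, read 10444 (virgin), 7044 (abdominal), 9077 (PP2) and 4848 (dorsal), and *P4ha1*, a proline hydroxylase, read 700, 815, 698 and 643. Neither passed the rule in any comparison.

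*Plod2*, a lysine hydroxylase, read 340 (abdominal) and 743 (PP2), 2.18-fold higher, and *Fkbp14*, a prolyl isomerase, read 603 and 1346, 2.23-fold higher. *Colgalt1*, which adds galactose to hydroxylysine and was named after its values were seen, was the gene higher on the abdominal array (1222 against 603, 2.03-fold). *P4ha3*, another proline hydroxylase, had no present call on the abdominal array and was at least 2.45-fold higher on the virgin and at least 2.68-fold higher on the PP2 array. *Colgalt2* had none there either and was at least 2.18-fold higher on the virgin array. The median log2 ratios of the list were 0.02, 0.01 and 0.01 over virgin, PP2 and dorsal.

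Of 9 detected genes of procollagen processing and cross-linking, 2 were higher over virgin, 0 over PP2 and 3 over dorsal, where the array-wide share was 4.95%, and 0 were lower. *Lox*, the lysyl oxidase that starts cross-links, read 560 (virgin), 1163 (abdominal), 1182 (PP2) and 926 (dorsal). The virgin array was the low one, 2.08-fold below abdominal. *Tll1*, a protease that trims procollagen ends, read 119, 334, 203 and 87.8, and was 2.80-fold above virgin and 3.81-fold above dorsal on the abdominal array. *Pcolce*, which enhances that trimming, read 8654, 8550, 9284 and 3342. Dorsal was the low array, 2.56-fold below abdominal, as for both *Col1a1* probe sets. *Loxl4*, a relative of *Lox*, was dim, at 112 (abdominal) and 54.6 (dorsal), 2.06-fold above dorsal. The median log2 ratios of the list were -0.02, -0.02 and 0.33.

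Of 8 detected collagen receptors, 1 was higher over virgin, 1 over PP2 and 1 lower over dorsal, which is 1 gene each beside shares of 3.19%, 4.66% and 4.67% of all genes. *Itga2*, an integrin subunit that binds collagen, was at least 2.37-fold above virgin, where it had no present call. *Itgb1*, the shared partner of the collagen-binding integrins, read 1389 (virgin), 2223 (abdominal), 966 (PP2) and 1279 (dorsal) and was 2.30-fold above PP2. *Lair1*, an inhibitory receptor of immune cells, was dim, at 26.3 (abdominal) and 54.8 (dorsal), 2.08-fold higher on the dorsal array. On the virgin array it read 53.0 without a present call. *Mrc2*, a receptor for collagen uptake, read 689, 390, 470 and 305 and did not pass the rule.

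Of 5 detected genes of collagen cleavage, 1 was higher and 1 lower over virgin, 1 higher and 2 lower over PP2 and 1 higher and 1 lower over dorsal, beside 3.19% to 4.95% of all genes. *Mmp13* and *Fap* passed in all 3 comparisons and *Mmp14* over PP2. *Mmp14*, a membrane-bound collagenase, read 3407 (virgin), 3318 (abdominal), 6851 (PP2) and 4254 (dorsal), with PP2 2.06-fold above abdominal. *Fap*, a protease of activated fibroblasts, read 2979, 989, 3113 and 2226. The abdominal array was the low one, with the others 2.25-fold to 3.15-fold above it. *Mmp13*, an interstitial collagenase, was called present on the abdominal array alone, at 36.0, which was at least 3.37-fold above virgin, at least 3.84-fold above dorsal and at least 9.09-fold above PP2. These ratios rest on the dimmest present signal of each other array, not on a limit of this probe set, and are not strict lower bounds. *Mmp2*, a gelatinase, read 3406, 5281, 4828 and 2926 and did not pass the rule.

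**Figure D5:**
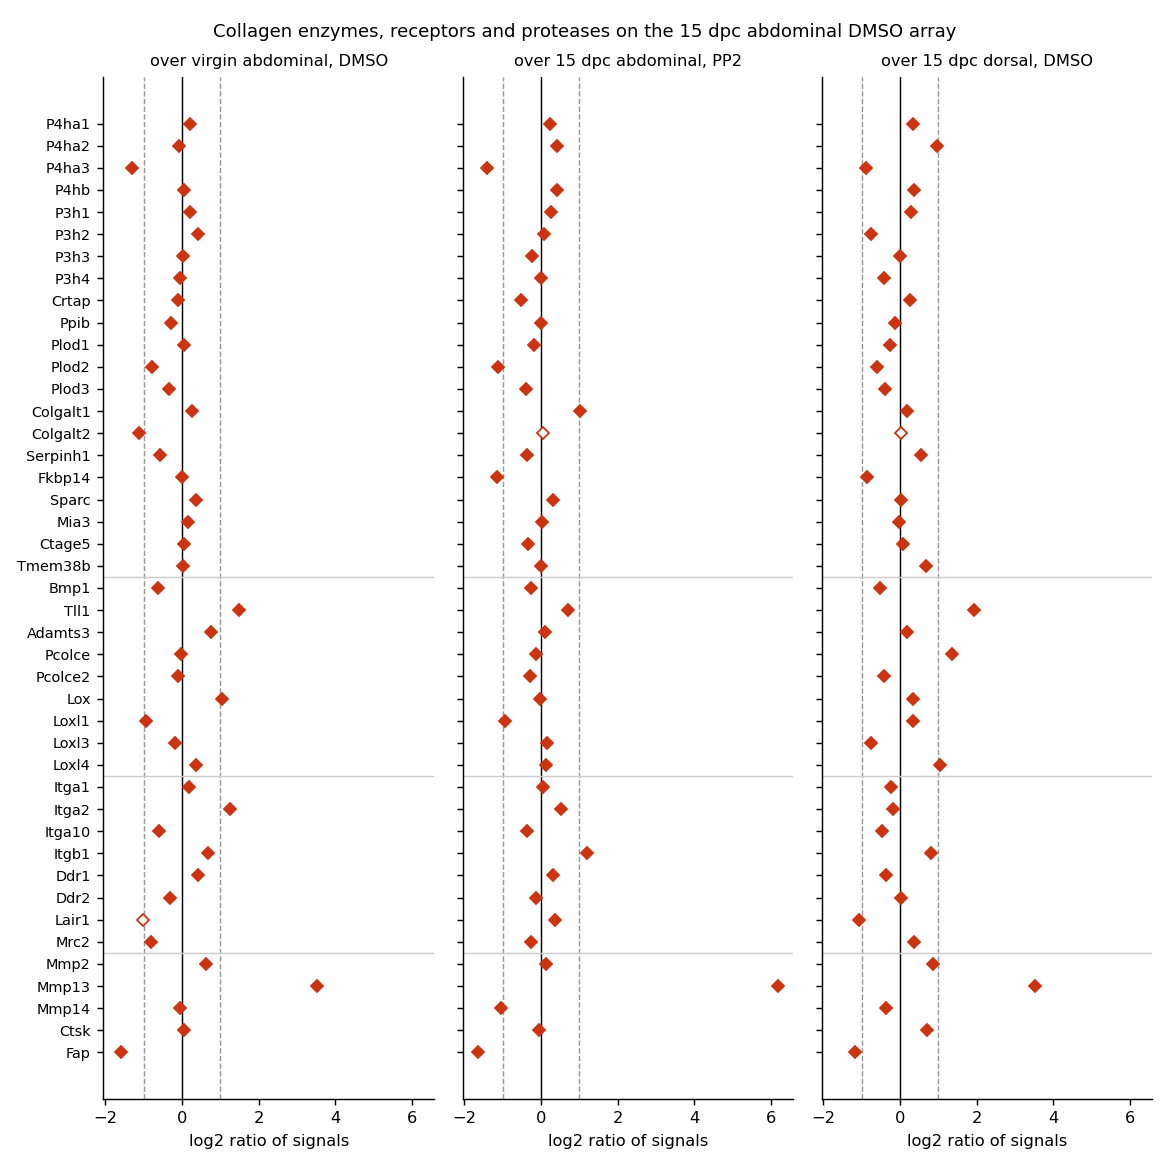
Log2 ratio of MAS5 signals of the abdominal array over the virgin, PP2 and dorsal arrays (x axis) for the detected genes of collagen folding and modification, processing and cross-linking, receptors and cleavage (y axis, in that order). Dashed lines mark 2-fold, and open symbols mark ratios with no present call on the brighter array. *Mmp13*, to the far right in all 3 panels, had no present call on the 3 other arrays. Its plotted ratios are those of the signals as deposited and not those given in the text.

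Of the 18 collagen genes with at least 2 detected probe sets, 5 had probe sets with opposite directions over virgin, 4 over PP2 and 3 over dorsal. For *Col4a4* over virgin, the direction of the second probe set comes from signals not called present on either array. The distance between the lowest and highest log2 ratio of a gene had a median of 0.49 over virgin, 0.40 over PP2 and 0.36 over dorsal, and reached 2.07 in *Col1a2* over virgin and 2.46 in *Col5a1* over PP2. Where a gene with several detected probe sets was called, they gave 1 direction in that comparison, which held for *Col1a1*, *Col4a6* and *Col23a1* over virgin, *Col11a1* and *Col12a1* over PP2, and *Col1a1*, *Col5a1*, *Col11a1*, *Col12a1* and *Col27a1* over dorsal.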

How the data were processed

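Dermal RNA of 4 conditions was hybridised to Affymetrix mouse arrays, 1 each. The authors deposited an intensity per probe set, called the signal here and linear in scale, with a detection call of 3 grades (present, marginal, absent). Both were made with MAS5 in Affymetrix Expression Console (version 1 in the submitters' processing notes), and the trimmed means of the arrays had been set equal. The deposited table of all arrays differed from the single-array tables for 0 probe sets, and 0 columns lacked a sample. Conditions came from the sample labels. Signals were used as deposited.

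Probe sets were named through the platform's annotation, and those with several symbols or none were left out. All 42 collagen genes had an entry in the RefSeq gene table of GRCm38.p6. The files name no genome build, and coordinates are given only for RefSeq promoters. A gene stands for its brightest probe set, by mean log2 signal over the 4 arrays, unless another is named. For a probe set not called present on the dimmer array, the brighter signal was divided by the higher of the dimmer signal and the dimmest signal called present on that array, and the ratio is written as at least that large.

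Collagen genes above 2-fold and the chains of the main dermal types were described with all values. From the lists of enzymes, receptors and proteases, up to 4 detected genes with the largest ratio were named, and *Mmp14*, *Serpinh1*, *Lox* and *P4ha1* whatever their values. The members and lists were chosen with earlier results of these data known. Python 3.11.15, pandas 2.3.3, numpy 2.4.6 and matplotlib 3.10.9 were used, and the calls were checked on simulated data.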

Additional observations from a re-analysis of the deposited data

How the results depend on the processing

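Each count and median was recomputed with other scalings, folds, detection filters and choices of probe set. No replicate could be left out and no paired analysis was possible because each condition had 1 array. Counts of collagen genes higher over virgin (3 as reported) became 5 after quantile normalization, 5 when any probe set could pass, 1 with 64 added to each signal, 7 at 1.5-fold and 0 at 3-fold. Counts lower over virgin (1) became 4 at 1.5-fold and 0 at 3-fold. Counts higher over PP2 (1) became 0 after quantile normalization and with 64 added, 2 without the detection filter, 4 with any probe set, 3 with the median of detected probe sets, 3 with the second brightest detected probe set, 5 at 1.5-fold and 0 at 3-fold. Counts lower over PP2 (3) became 7 at 1.5-fold. Counts higher over dorsal (2) became 5 with any probe set, 4 with the median of detected probe sets, 5 with the second brightest, 5 at 1.5-fold and 1 at 3-fold, and counts lower over dorsal (5) became 9 at 1.5-fold and 1 at 3-fold. The median log2 ratio over PP2 (-0.36) was -0.10 with the second brightest probe set, an alternative chosen after seeing the data. The cause was not tested beyond what the looser or stricter thresholds fix by themselves. The other alternatives left the counts within 1.5 times and the medians within 0.25.

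With the arrays set to one median, all probe sets present on both arrays had a median log2 ratio over PP2 of -0.07 instead of 0.04. Of 386 recomputed ratios of single genes, 333 stayed within 0.25 on the log2 scale and 53 moved further, 42 of them with other probe sets, 6 with another scaling and 5 with 64 added, and 0 called ratios turned sign. The calls lost with 64 added were those of *Col9a3* over virgin and PP2, *Col4a6* over virgin and *Col11a1* over dorsal, all dim genes.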
